A study of Caenorhabditis elegans with 2 samples.

Results

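The microRNA genes of Caenorhabditis elegans were read for peaks of ELT-1, a GATA factor needed to form the epidermis of the embryo. Members were all annotated genes with a symbol of mir- and a number, plus let-7, lin-4 and lsy-6, with 1 locus per symbol, which gave 261 of 46926 genes. Binding was read by sequencing of immunoprecipitated chromatin (ChIP-seq) in 1 group of 2 biological replicates. Both were hermaphrodite mixed-stage embryos of strain OP354, genotype unc-119(tm4063) III with the integrated transgene wgIs354, which makes ELT-1 tagged with GFP and FLAG at its C terminus. There was no untagged or untreated group. The labels disagree on the antibody: their descriptions name GFP as its target, which was followed here, and the antibody field says elt-1. Whole embryos were used, so a peak does not tell which cells carried it, and the lists hold positions and signal but no RNA levels.

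microRNAs are short RNAs that guide Argonaute proteins to messenger RNAs and lower the output of those messages. Each is cut from a hairpin precursor, which lies in a longer primary transcript made by RNA polymerase II, either from its own promoter or within a host gene. Bases 2 to 8 of the mature RNA, the seed, do most of the pairing with targets, and microRNAs with the same seed form a family. lin-4 and the let-7 family time the larval development of the epidermis, the mir-35 family is needed in the early embryo, and mir-79 acts in the epidermis. The mir-51 family is broadly expressed, and mir-58.1 is among the most abundant microRNAs of the worm.

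The mature sequences show which of the microRNAs with a peak are related. They were read from the RefSeq annotation and the WBcel235 genome, with the seed in capitals. lin-4 and let-7 are added as founding members that had no peak in the main list described below.
mir-51-5p: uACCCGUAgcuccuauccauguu
mir-52-5p: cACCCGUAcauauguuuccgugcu
mir-53-5p: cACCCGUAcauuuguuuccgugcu
mir-54-3p: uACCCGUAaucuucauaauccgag
mir-55-3p: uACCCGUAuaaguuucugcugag
mir-56-3p: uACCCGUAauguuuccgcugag
mir-42-3p: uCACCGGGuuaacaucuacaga
mir-43-3p: uAUCACAGuuuacuugcugucgc
mir-44-3p: uGACUAGAgacacauucagcu
mir-58.1-3p: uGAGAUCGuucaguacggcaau
mir-240-3p: uACUGGCCcccaaaucuucgcu
mir-786-3p: uAAUGCCCugaaugauguucaau
lin-4-5p: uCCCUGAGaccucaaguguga
let-7-5p: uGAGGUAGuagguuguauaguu

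The first 6 share the seed ACCCGUA and form the mir-51 family, and no other mature microRNA whose sequence was read carried that seed. Sequences were not read for the 33 members on the chromosome of mir-79. mir-42 carries the seed CACCGGG of the mir-35 family, while its neighbours mir-43 and mir-44 carry other seeds. mir-240 and mir-786 share a peak and have different seeds.

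The DNA around 5 summits, from the RefSeq WBcel235 genome (the build called ce11 in the peak lists), shows the range from several GATA sites to none. Each run holds the summit at its centre with 100 bp to each side, reads in the direction of the precursor, and has the sites in capitals. Of the 4 forms searched the first was AGATAA, the second form was AGATAG, the third form was TGATAA, and the last form was TGATAG. Both strands were searched, so reverse complements are in capitals too, and overlapping sites were each counted.
mir-240 and mir-786 (chrX:7880881-7881081, plus strand): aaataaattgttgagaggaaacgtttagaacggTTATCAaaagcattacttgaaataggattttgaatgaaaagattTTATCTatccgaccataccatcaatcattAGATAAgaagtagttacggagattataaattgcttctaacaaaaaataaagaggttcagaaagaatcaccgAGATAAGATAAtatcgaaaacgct
mir-42 to mir-44 (chrII:11888200-11888400, plus strand): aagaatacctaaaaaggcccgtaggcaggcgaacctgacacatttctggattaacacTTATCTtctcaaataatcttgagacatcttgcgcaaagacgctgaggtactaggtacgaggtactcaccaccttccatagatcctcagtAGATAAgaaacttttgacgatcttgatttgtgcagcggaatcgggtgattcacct
mir-53 and mir-51 (chrIV:11027709-11027909, minus strand): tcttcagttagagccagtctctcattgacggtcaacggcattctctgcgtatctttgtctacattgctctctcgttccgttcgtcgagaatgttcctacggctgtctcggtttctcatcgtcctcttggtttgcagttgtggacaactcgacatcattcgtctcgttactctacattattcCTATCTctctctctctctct
mir-52, nearer summit (chrIV:14033684-14033884, plus strand): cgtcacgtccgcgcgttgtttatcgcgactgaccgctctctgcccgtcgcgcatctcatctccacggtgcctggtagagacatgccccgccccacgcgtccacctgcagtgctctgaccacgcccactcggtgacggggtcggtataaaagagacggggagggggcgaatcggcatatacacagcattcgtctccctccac
mir-54 to mir-56 (chrX:13145252-13145452, minus strand): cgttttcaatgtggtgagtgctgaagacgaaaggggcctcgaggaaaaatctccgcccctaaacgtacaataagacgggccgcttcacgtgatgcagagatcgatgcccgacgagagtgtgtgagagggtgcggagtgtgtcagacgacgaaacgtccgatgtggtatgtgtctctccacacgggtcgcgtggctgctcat

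The run of mir-240 and mir-786 held 5 sites, of which 2 copies of AGATAA share a base. The run of mir-42 to mir-44 held 2 sites, 1 on each side of the summit. The run of mir-53 and mir-51 held 1, near its 3′ edge, and those of mir-52 and of mir-54 to mir-56 held 0.

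Members were scored against 2 ce11 peak lists made by the submitters. The main list held 1400 peaks thresholded by the irreproducible discovery rate (IDR). The pooled relaxed list held 30000 peaks and by its title includes background. A member was called occupied when a summit lay between 2000 bp upstream of its precursor and the precursor's 3′ end. Signal is the peak caller's own value, with no scale stated between lists, and read depth was unknown. The replicate lists held 30000 and 26001 relaxed peaks. At each occupied member the strongest IDR peak had the same rank in the pooled relaxed list. A place in the IDR list thus followed pooled signal there and does not mean a high rank in both replicates.

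IDR summits were found at 26 of the 261 microRNA genes (9.96%), from 24 distinct peaks. The same kind of window held an IDR summit at 4.3% of 19973 nuclear protein-coding genes, at 6.21% of 612 tRNA genes, at 6.7% of 194 lincRNA genes and at 3.91% of 128 snRNA genes. At the 346 snoRNA genes it was 11.3%, above the share of the microRNA genes. If the IDR summits lay evenly along each chromosome, 7.85 microRNA windows (3.01%) would hold one, so the count was 3.31-fold that number. The corresponding ratio was 1.55 for protein-coding genes and 3.95 for snoRNA genes. These ratios are descriptions with no test, since genes are not replicates and neighbouring windows overlap.

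Windows of clustered microRNAs share peaks. Counted as 223 separate loci of overlapping windows on 1 strand, 20 (8.97%) held an IDR summit. Of the 24 peaks, 4 lay in the windows of more than 1 member, and 4 members had 2 summits each. With a window from 1000 bp upstream the count was 14 (5.36%), where protein-coding genes had 3.02% and snoRNA genes 9.54%. When the 1400 strongest relaxed peaks of a single replicate took the place of the IDR list, 25 members were occupied by replicate 1 and 18 (6.9%) by replicate 2. The same lists gave 4.27% and 4.3% for protein-coding genes and 9.54% and 13% for snoRNA genes.

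**Figure D1:**
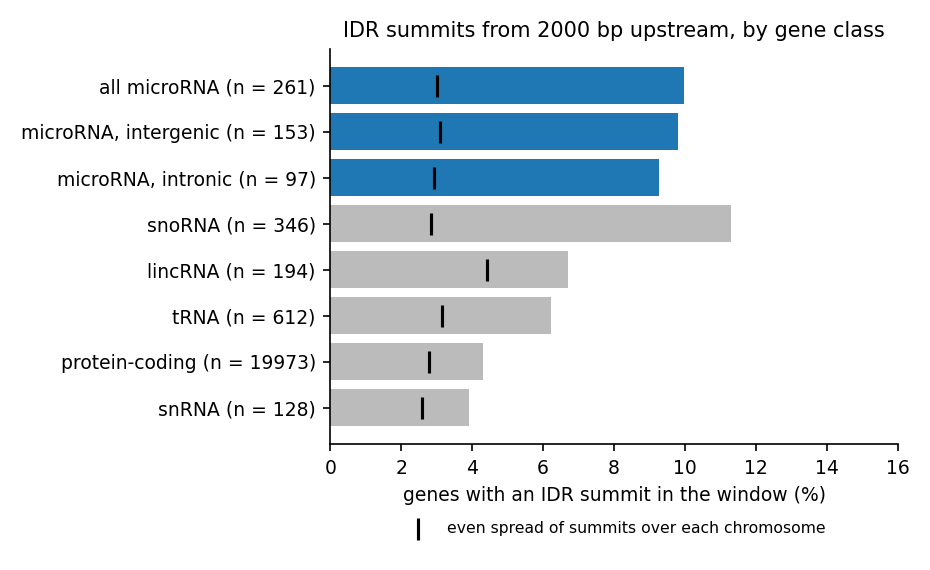
Bars give the percentage of genes with an IDR summit from 2000 bp upstream to the 3′ end (protein-coding genes, to 94 bp past the start of the gene), and ticks give the percentage for summits spread evenly over each chromosome. All 3 microRNA bars lie between 9.28% and 9.96%, above the protein-coding bar at 4.3% and below the snoRNA bar at 11.3%.

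Intergenic and intronic precursors were occupied at like shares. Of 153 intergenic precursors, 15 (9.8%) had an IDR summit, and of 97 in an intron of a protein-coding gene on either strand, 9 (9.28%) did. Even spread would give 4.73 and 2.83. Split by strand, the intronic precursors had 6 of 67 in hosts on the same strand and 3 of 30 in hosts on the other strand, the latter mir-54, mir-55 and mir-56 with 1 peak. Of 11 precursors that overlap an exon, 2 were occupied. With the strongest peaks of replicate 2 alone the intergenic share was 4.58%, from 7 members, while the intronic share was again 9.28%. With the 1000 bp window the intergenic share was 3.92% and the intronic share 6.19%.

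Among the 67 precursors in an intron on the same strand, 4 had a host with an IDR summit at an annotated 5′ end, taken as the span from 1000 bp before it to 200 bp after it. These were mir-353 in rpl-24, mir-4929 in E01G4.3, mir-8197 in T09F5.1 and mir-55b in F09A5.3. The share of all protein-coding genes over that span was not computed, so the count is read no further. Over the window from 1000 bp upstream of the gene it was 3.02%. For mir-353, mir-4929 and mir-8197 the peak of the host and that of the microRNA window were the same, at signals of 32.8, 59.3 and 44.3. The host peak of F09A5.3 had a signal of 154 and lay outside the window of mir-55b.

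The strongest of the 24 peaks belonged to mir-79, which acts in the epidermis and has a seed related to that of miR-9 in other animals. Its signal was 187, rank 19 of the 1400 IDR peaks, and the summit lay 287 bp upstream of the precursor (ce11 chromosome I, 9332511 to 9332797, summit 9332659). In replicate 1 the signal was 128 at rank 18, and in replicate 2 it was 56.1 at rank 24. It was thus near the top of both lists. The region is intergenic, between the 3′ ends of cbl-1 and lin-41, and the nearest annotated 5′ end of a protein-coding gene, that of cbl-1, was 4802 bp away. Within 100 bp of the summit lay 5 GATA sites, in 3 of the 4 forms searched.

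The next in order was mir-8204, a precursor that overlaps an exon of F21A9.1 and had 2 summits, at 74.6 and 50.9. Both lay in promoter windows of F21A9.1 and F21A9.2, and their ranks were 128 and 566 in replicate 1 and 357 and 480 in replicate 2. The cluster of mir-42, mir-43 and mir-44 followed with 1 shared peak of 70.6, 1511 bp upstream of mir-42 (ce11 chromosome II, 11888232 to 11888382). Its signal was 46.3 in replicate 1, at rank 196, and 25.2 in replicate 2, at rank 227. The nearest annotated 5′ end of a protein-coding gene was that of ZK930.6, at 4352 bp.

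**Figure D2:**
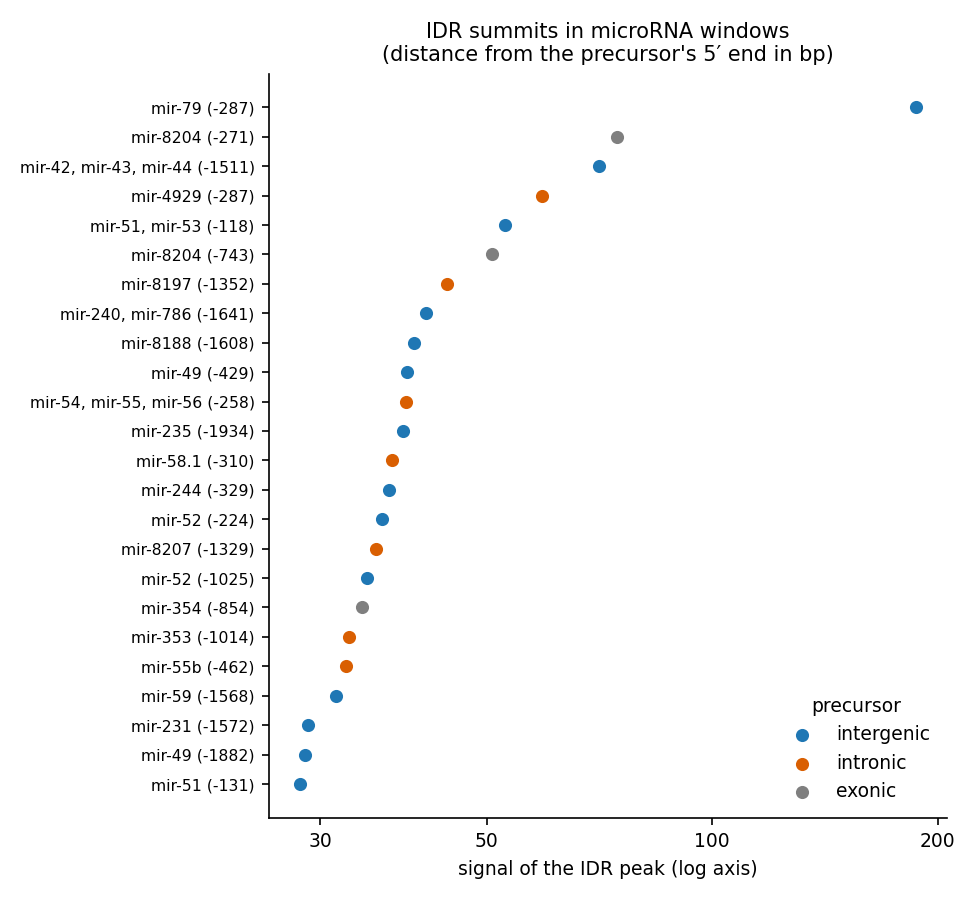
Each point is 1 of the 24 IDR summits in a microRNA window, with its peak signal on a log axis and, in brackets, its distance from the 5′ end of the nearest precursor in whose window it lies. mir-79 stands alone at 187, and the other 23 lie between 28.2 and 74.6.

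The median signal of the 24 peaks was 38, against 39.4 over all IDR peaks, and 9 lay above the latter value. Apart from mir-79 the microRNA peaks were thus ordinary members of the list. The lowest was that of mir-51 at 28.2, close to 27.8, the lowest of the whole list.

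A relaxed peak of replicate 1 and one of replicate 2 overlapped each of the 24. Among the strongest 1400 of replicate 1 there were 20, among those of replicate 2 there were 15, and 12 were in both. One, the far summit of mir-49 at 1882 bp upstream, was in neither, at ranks 9939 and 4994. The ranks differed most for the summit 131 bp upstream of mir-51, which was 443 in replicate 1 and 17898 in replicate 2, with signals of 32.6 and 2.88. mir-8188 had ranks of 328 and 4799. In the other direction, the summit of mir-55b ranked 6794 in replicate 1 and 687 in replicate 2. Restricted to IDR peaks among the strongest 1400 of both replicates, a restriction chosen after the values were seen, 14 microRNA genes were occupied.

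**Figure D3:**
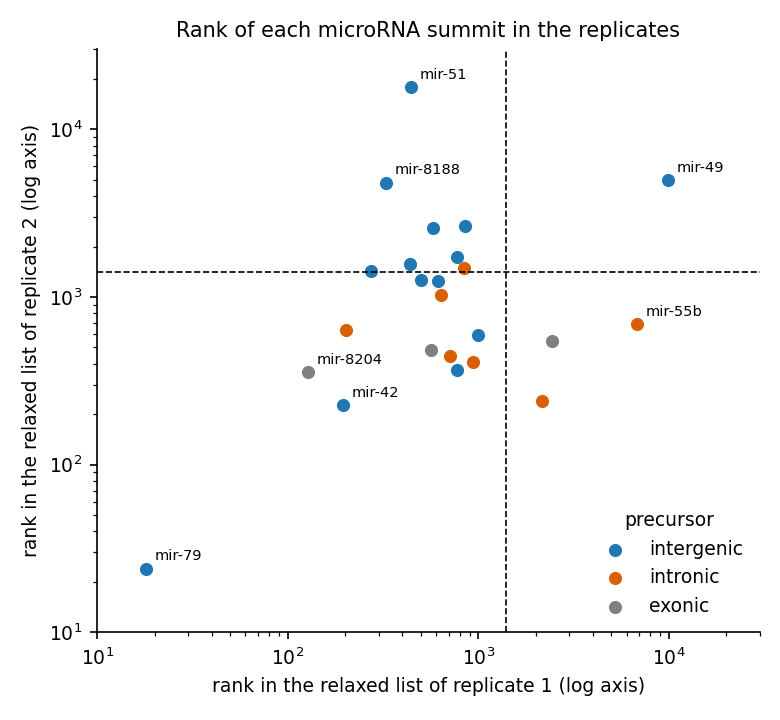
Each point is 1 of the 24 summits, placed by the rank of the overlapping relaxed peak in replicate 1 and in replicate 2, both on log axes, with dashed lines at rank 1400. 12 points lie below both lines, led by mir-79 at ranks 18 and 24, and that of mir-49 at ranks 9939 and 4994 lies above both.

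The mir-51 family was occupied at each of its 6 genes by seed, mir-51 to mir-56, through 5 peaks in 3 places, where 9.96% of all microRNA genes were occupied. With overlapping windows merged the 6 genes form 3 loci, where 8.97% of all such loci were occupied, so they are not 6 separate observations. On chromosome IV, mir-53 had a summit 118 bp upstream with a signal of 52.9 (11027634 to 11027983). Its signal was 40.2 in replicate 1, at rank 275, and 10.5 in replicate 2, at rank 1437. This summit also fell in the window of mir-51, which lies downstream on the same strand and had its own weak summit, the one at 28.2. The second place, mir-52, lies elsewhere on the same chromosome and had summits of 36.3 at 224 bp and of 34.6 at 1025 bp upstream. Their ranks were 611 and 997 in replicate 1 and 1240 and 592 in replicate 2. The nearest annotated 5′ end of a protein-coding gene, that of Y37A1B.7, was 9996 and 10797 bp from them. The third place is the cluster of mir-54, mir-55 and mir-56 in an intron of F09A5.3 on the other strand of the X chromosome. It had 1 shared summit of 39, at 258 bp upstream of mir-54 (13145177 to 13145526), with ranks of 640 and 1034.

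The hairpin annotated as mir-55b lies opposite mir-55, with a different seed, and had its own summit of 32.5 at 462 bp upstream. Of the 5 family summits, those of mir-53, of mir-51 and the far one of mir-52 held 1 site each, all AGATAG, and the other 2 held none. Among peaks ranked within 1400 in both replicates, mir-52 and mir-54 to mir-56 held a summit, and mir-51 and mir-53, at rank 1437 in replicate 2, did not.

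**Figure D4:**
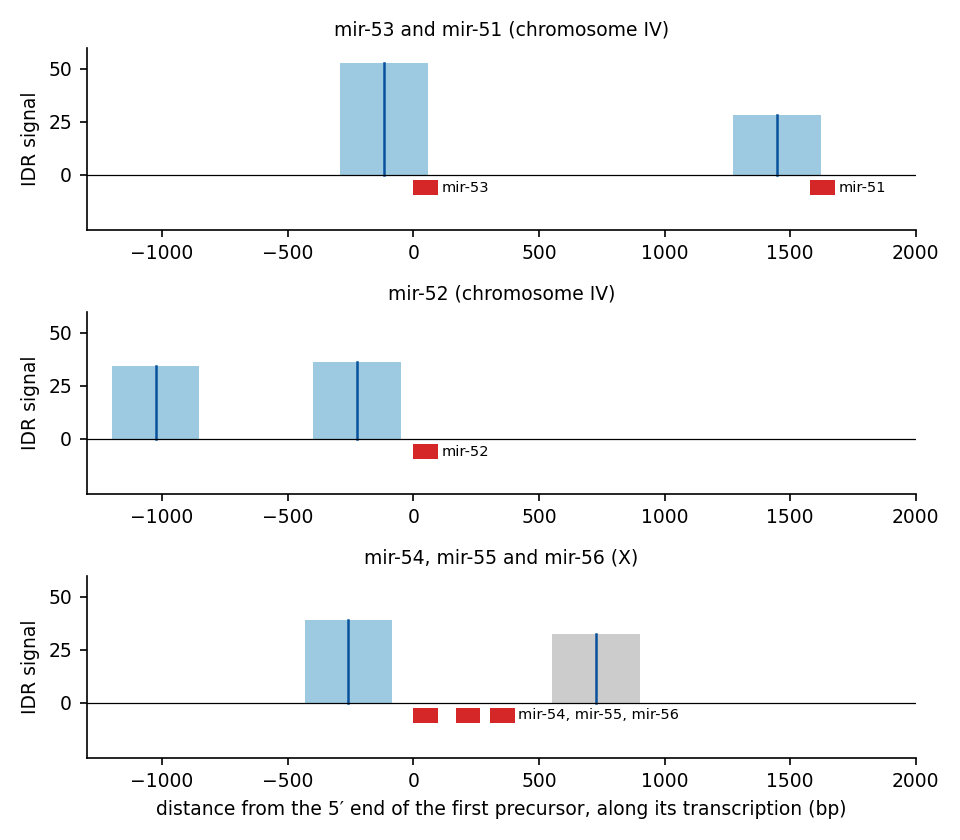
Blue boxes give the interval and signal of each IDR peak at the 3 places of the mir-51 family, dark lines give summits and red boxes precursors, along the direction of transcription in bp. The grey box is the peak in the window of mir-55b, on the opposite strand. The summits nearest to each place lie 118, 224 and 258 bp upstream, at signals of 52.9, 36.3 and 39.

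The other intergenic members that were occupied had peaks between 28.6 and 41.5. mir-786, which paces the defecation rhythm from the intestine, and its neighbour mir-240 shared a peak of 41.5, 1641 bp upstream of mir-240 on the X chromosome (7880806 to 7881155). Its ranks were 440 and 1583, and the annotated 5′ end of C39D10.8 lay 33 bp downstream of it. mir-235, which acts in the epidermis in the response of arrested larvae to food, had a peak of 38.7 at 1934 bp upstream (chromosome I, 6164146 to 6164495), with ranks of 774 and 369 and 2 GATA sites. mir-244 had a peak of 37.1 at 329 bp upstream, with ranks of 503 and 1266. mir-49 had summits of 39.2 and 28.6, the former at 429 bp upstream with ranks of 581 and 2565. mir-59 and mir-231 had summits of 31.5 and 28.9 at 1568 and 1572 bp upstream, and that of mir-59 lay in the promoter of znf-207. Their ranks were 770 and 852 in replicate 1 and 1737 and 2635 in replicate 2.

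mir-58.1, a relative of bantam in flies, had a peak of 37.4 at 310 bp upstream, in an intron of its host phkb-1 (chromosome IV, 3232769 to 3233118). Its signal was 23.2 in replicate 1, at rank 935, and 19 in replicate 2, at rank 408, and no GATA site lay within 100 bp. The other 8 genes of that family list, namely mir-58.2, mir-58c, mir-80, mir-81, mir-82 and the 3 mir-2209 genes, had no IDR summit in the window. This list does not follow the rule of 1 shared seed. mir-58.1 carries GAGAUCG, while mir-58.2, mir-58c, mir-80, mir-81, mir-82 and mir-2209.1 carry GAGAUCA, and mir-2209.2 and mir-2209.3 do not. The strongest pooled relaxed signals of mir-80, mir-81 and mir-82 there were 10.4, 6.35 and 8.66.

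The remaining occupied members were mir-353, mir-354, mir-4929, mir-8188, mir-8197 and mir-8207. mir-353 and mir-354 lie in the ribosomal protein genes rpl-24 and rps-20. Their peaks of 32.8 and 34.1 lay in promoters of rpl-24 and rps-10 and of ekl-4 and rps-20, and they ranked 2154 and 2424 in replicate 1 and 240 and 547 in replicate 2.

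The microRNAs listed for larval timing had no IDR summit in their windows, 0 of 9, where 9.96% of all microRNA genes had one. They were lin-4, let-7, mir-48, mir-84, mir-237, mir-241, mir-793, mir-794 and mir-795. The list as first planned did not hold mir-793, mir-794 and mir-795. It did hold mir-79, which was occupied and is counted apart here. With so few genes the count is read no further. Among them let-7, mir-48, mir-84 and mir-241 carry the seed GAGGUAG, while mir-794 and mir-795 were not read for a seed. lin-4 lies in an intron of F59G1.4, and its strongest pooled relaxed peak had a signal of 11.2, with 8.98 at the same summit in replicate 1. The only summit of replicate 2 in the window, at 4.9, lay elsewhere, nearer to the precursor. let-7 had a pooled signal of 5.72 and one of 5.26 in replicate 1, and no summit in replicate 2. The highest pooled signals of the 9 were 14.6 at mir-795 and 12.6 at mir-793. At mir-795, replicate 1 had 8.71 at the same summit, and the only summit of replicate 2, at 5.23, lay elsewhere in the window. At mir-793 the replicates had 5.79 and 5.72, near the pooled summit. mir-48, mir-237 and mir-794 had no summit in any of the 4 lists. mir-84 had signals of 6.67 and 2.46 in the replicates, at summits apart from each other, and none in the pool. mir-241 had one of 3.62 in replicate 2 alone. The nearest IDR summit lay 15590 bp from lin-4, 44205 bp from let-7, 21832 bp from mir-48, 11159 bp from mir-84, 23606 bp from mir-241 and 66873 bp from mir-237. The relaxed lists include background by their title, and none of these peaks was in the IDR list. An absence of IDR peaks in mixed-stage embryos says nothing of later stages.

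Of 8 microRNA genes listed for muscle, neurons, glia and intestine, 1 had an IDR summit, mir-786 of the intestine, against 9.96% of all microRNA genes, and the count is read no further. mir-1 of muscle and lsy-6, mir-124, mir-71 and mir-791 of neurons had none in their windows. Their pooled relaxed signals were 6.29 at mir-1, 6.95 at lsy-6, 9.59 at mir-124 and 10.1 at mir-71. mir-228 of glia had none either, with a pooled signal of 21.1 in the window and an IDR summit of 48.2 just outside it, 2249 bp upstream. In the mir-35 family of the early embryo, mir-42 was occupied and the 7 clustered members mir-35 to mir-41 were not.

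The members just outside the list were mir-35 and mir-36, which shared a pooled relaxed peak of 27, just under the lowest IDR signal. The strongest relaxed peak in their windows was at 16 in replicate 1, rank 1845, and at 4.57 in replicate 2, rank 8600. That of replicate 2 lay nearer to the precursors, away from the pooled summit. After mir-35 and mir-36 came mir-46 at 26.7, mir-8210 at 25.9 and mir-2 at 25.4. For mir-46 the ranks were 2104 and 1418. In all, 140 of the 261 microRNA genes (53.6%) had a pooled relaxed summit in the window, against 51.3% of protein-coding, 50.8% of snRNA, 59.8% of lincRNA, 61.1% of tRNA and 69.7% of snoRNA genes. That share is near the background and is read no further. No summit in any of the 4 lists was found for 63 members.

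The window runs from 2000 bp upstream to the precursor's 3′ end, so nearly all of it is upstream by the rule. All 24 summits lay upstream of the precursor in whose window they were counted and none in a precursor, which the rule alone makes likely. Of these, 11 lay within 500 bp, 2 at 500 to 1000 bp and 11 at 1000 to 2000 bp. Assigned to the nearest precursor on either side, 33 IDR summits lay upstream and 16 downstream of the 5′ end within 5000 bp, and the bin of 500 bp just upstream held 10 against 1 in the bin just downstream. The summit of mir-55b is counted there at mir-56, its nearest precursor, which is why that bin holds 10 and not 11. In the pooled relaxed list the 2 sides held 394 and 312, and these bins 60 and 38. No test was made of these profiles.

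**Figure D5:**
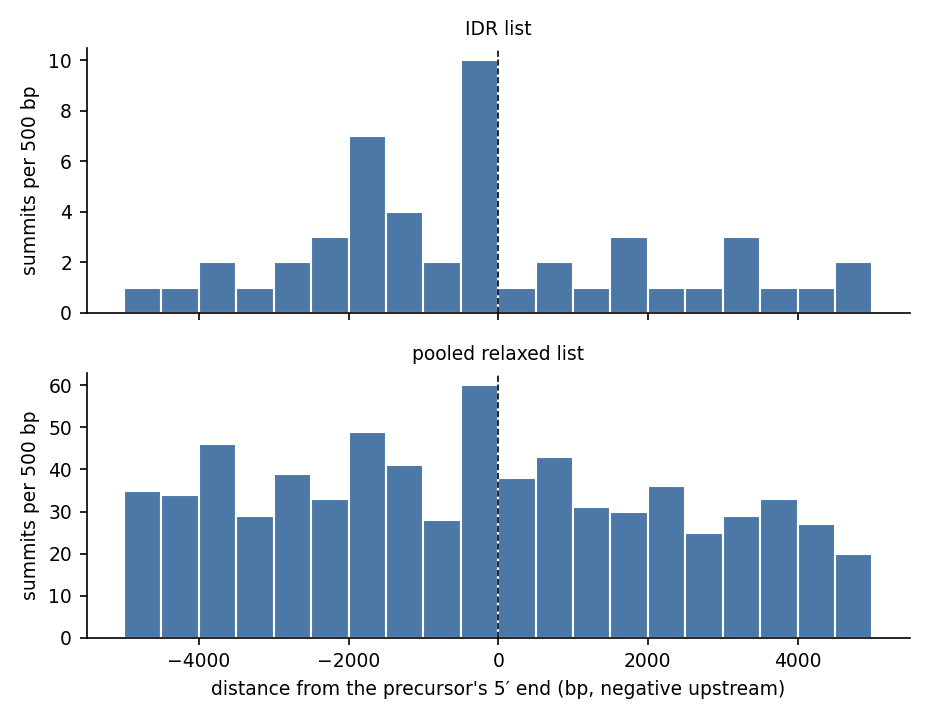
Bars count IDR summits (top) and pooled relaxed summits (bottom) per 500 bp by distance from the 5′ end of the nearest microRNA precursor, negative upstream. The bin just upstream is the highest in both, at 10 and 60.

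Of the 24 peaks, 9 lay in an annotated promoter window of a protein-coding gene and 15 did not. The share of all IDR peaks in such promoter windows was not computed, so these counts are read no further. The larger windows from 2000 bp upstream of protein-coding genes held 48.3% of the whole list, a share over another span. Equally, 15 were nearer to the precursor's 5′ end than to any annotated protein-coding 5′ end. Summits had been selected for lying near a precursor, so that count is read no further. Among the intergenic precursors 3 of 14 summits lay in a coding promoter, among the intronic 3 of 7 and among the exonic 3 of 3. Without the IDR peaks in coding promoters, a step added after the values were seen, 17 microRNA genes (6.51%) were occupied. They included mir-79, mir-42 to mir-44 and the mir-51 family. The step was not applied to other gene classes, so no background stands beside it. Many worm messages are trans-spliced, which can place an annotated 5′ end past the true start of transcription.

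The share of microRNA summits with a GATA site was close to that of the whole list. Of the 24 summits, 15 (62.5%) held at least 1 site within 100 bp, against 65.2% of all 1400, and 5 (20.8%) held 2 or more, against 31.4%. AGATAA alone was present at 29.2%, against 40.9%, and the core GATA at 87.5%, against 90.4%. Sites were found at 10 of 14 summits of intergenic precursors and at 3 of 7 of intronic ones. Outside coding promoters 10 of 15 held a site and inside them 5 of 9.

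By chromosome, 6 of 33 members on I were occupied (18.2%), 5 of 50 on II, 1 of 27 on III, 6 of 50 on IV, 1 of 28 on V and 7 of 73 on X (9.59%). The shares of other genes by chromosome were not computed, so these counts are read no further. By name, a split chosen after the values were seen, 21 of the 137 members with a number under 1000 or a gene name were occupied (15.3%). Of the 124 with higher numbers 5 were (4.03%), a share close to that of protein-coding genes. All peaks shared by more than 1 member lay in the first group. Loci were not counted for this split, so it is read no further.

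Protein-coding genes of the microRNA pathway and of larval timing were read in the same way. The list of 22 was chosen with earlier results of these data known. IDR summits lay in the windows of 5 (22.7%), against the 4.3% of all protein-coding genes. These were alg-2, which encodes an Argonaute of the microRNA pathway, ain-1, which encodes a GW182-type partner of the Argonautes, the exonuclease gene xrn-2, which degrades microRNAs, and hbl-1 and lin-28, targets of the let-7 family and of lin-4. alg-2 had the highest signal, 94.5, at rank 122 in replicate 1 and 72 in replicate 2. xrn-2 had 41.2, ain-1 33.6, hbl-1 30.6 and lin-28 29.4. Their ranks in replicate 1 were 684, 1246, 1447 and 1055, in that order. In replicate 2 they were 2425, 963, 942 and 2244. With so few genes and a list chosen in this way, the share is read no further. Counted from 1000 bp before to 200 bp after any transcript's 5′ end, 3 genes were occupied (13.6%). The share of all protein-coding genes over that span was not computed. The other Argonaute gene, alg-1, had a pooled relaxed signal of 7.24 and no IDR summit. Nor did drsh-1, pash-1 and dcr-1, which encode the enzymes and partner that cut precursors, or the targets lin-14 and lin-41. In dre-1, lin-42 and ain-2 IDR summits lay within the gene and outside the window, with signals of up to 57.3, 45.2 and 29.6.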

How the data were processed

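ChIP-seq peaks of ELT-1 fused to GFP came from 2 biological replicates of mixed-stage embryos, numbered per the labels. The authors' deposited narrowPeak lists on ce11 were used as they are: relaxed lists of each replicate and of their pool, called against control alignments, and the IDR list derived from them, per the text lists of files. The deposited signal is column 7, a value per peak, and the summit is the start plus column 10. Depth is unknown, and the sources used here do not name the caller, aligner, versions or IDR threshold. ce10 lists were not used.

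Precursors came from the Ensembl release 115 annotation of WBcel235, and symbols from RefSeq records of the same gene IDs. Ensembl prefixes most symbols with cel-, and 3 members carry an Ensembl symbol only. A snRNA record, mir-1831, is a member by its symbol. A precursor was called intronic when it lay within a protein-coding gene and touched no exon. Protein-coding windows ended 94 bp into the gene, the median precursor length.

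Even spread was computed from window and chromosome lengths, with no draws. Sequences were read from the RefSeq WBcel235 genome, and those of members on chromosome I were not read. Peaks and genes are not replicates, so no p-value is given. The code was tested on simulated data. Members and lists were chosen with earlier results of these data known. Named were all occupied members, 14 fixed ones and the 5 strongest without an IDR summit. Alternatives covered window, overlap, list, replicate, merging, member rule and motif. Tools were Python 3.11.15, SciPy 1.17.1, matplotlib 3.10.9, pandas 2.3.3 and numpy 2.4.6.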

Additional observations from a re-analysis of the deposited data

How the results depend on the processing

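The count of 26 occupied microRNA genes was 14 with 1000 bp and 12 with 500 bp upstream, 12 with the strongest 50% of IDR peaks, 17 without peaks in protein-coding promoters and 14 with IDR peaks among the strongest 1400 of both replicates, the last 2 chosen after seeing the data. Of these settings only the 1000 bp window was also applied to other gene classes. The intergenic share of 9.8% was 3.92% with 1000 bp and with 500 bp, 5.88% with the strongest 50% and 4.58% with peaks strong in both replicates, and the intronic share of 9.28% was 2.06% with the strongest 50%. Leaving out a replicate gave 18 to 25 genes, intergenic shares of 4.58% to 9.8%, an intronic share of 9.28% both times, 143 to 147 genes with a relaxed summit, GATA sites at 68.2% to 68.8% of summits and 4 pathway genes both times. GATA sites were at 29.2% of summits for AGATAA alone and at 87.5% for GATA alone, and the pathway count of 5 was 3 with the narrower window. In the other 40 of 54 comparisons counts stayed within 1.5 times and shares within the 95% Wilson interval of the main value. That interval takes genes or summits as independent, although windows share peaks, so it is a yardstick only. No paired analysis was possible because the series has 1 group. With 24 summits and unknown depth, small differences in shares cannot be read.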

Other observations

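Reaching 5000 bp upstream added 9 members, each through its own IDR peak. The strongest was at mir-4813, with a signal of 109 at 2902 bp upstream and ranks of 87 in replicate 1 and 63 in replicate 2. mir-228, a microRNA of glia, had one of 48.2 at 2249 bp with ranks of 1104 and 370, and mir-62 had one of 45.2 at 2049 bp. mir-81 of the mir-58 family list had one of 34.1 at 3834 bp, in an intron of gcy-31. mir-230 followed with 32 at 2424 bp, and mir-60, a microRNA of the intestine, had 29.3 at 2891 bp. mir-2207, mir-246 and mir-1829.2 had signals between 31 and 32.6. None of the 9 was lin-4 or a member of the let-7 family.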
